A study of Homo sapiens with 12 samples.

Results

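The genes described here are 8 members of the cyclin E, SKP2 and p27 axis of S phase entry: CCNE1, CCNE2, CDK2, CDC25A, CDKN1B, SKP2, CKS1B and FBXW7. They were chosen by name, out of 63677 genes counted in each library, and not ranked by a measured value. Earlier results of these data were known when the choice was made. RNA-seq was performed in HCC38, MDA-MB-468 and SUM149PT, 3 established lines of basal-like breast cancer. Cells were transfected with 50 nM LNA, an antisense oligonucleotide with locked nucleic acid bases, and collected at 24 h, with the medium changed at 6 h. In the knock-down group of each line (labelled RP19 KD) LNA1 and LNA2, which target the lncRNA RP11-19E11.1, were given together, and the reference was a non-targeting LNA (LNA NS). Each line and treatment had 2 libraries, 12 in all, made from polyA RNA with a strand-specific kit. Since nothing states that these came from separate cultures, the p-values measure the spread between these libraries, which may be technical.

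E-type cyclins bind the kinase CDK2, and the active complex phosphorylates pocket proteins and replication factors as cells pass from G1 into S phase. The phosphatase CDC25A removes inhibitory phosphates from CDK2, while p27, the product of CDKN1B, binds the complex and blocks it. SKP2 and FBXW7 are F-box proteins, the subunits with which SCF ubiquitin ligases recognize their substrates: SKP2, with the small cofactor CKS1B, marks phosphorylated p27 for degradation, and FBXW7 marks phosphorylated cyclin E. High cyclin E and low p27 protein are known features of many basal-like breast tumors. Protein was not measured in these data, so all values below are mRNA levels.

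The libraries held 32187835 to 56191152 gene counts, and each member had between 388 and 5429 counts per library, so all 8 could be tested. The targeted lncRNA (LINC01956 in the annotation used) was lower after knock-down in every line, with log2 fold changes of −3.09 in HCC38, −4.75 in MDA-MB-468 and −4.41 in SUM149PT. In MDA-MB-468 it was at 0.0230 and 0.0235 CPM (counts scaled to library size, TMM-normalized) in the knock-down libraries, 1 count in each, against 0.796 and 0.611 CPM in the LNA NS libraries. With LNA NS the lncRNA was lowest in this line, averaging 0.703 CPM against 10.9 CPM in SUM149PT and 14.8 CPM in HCC38. Of 9 basal-like breast markers all were tested, and the lines differed in them: KRT14 averaged 1.28 CPM after knock-down and 0.479 CPM with LNA NS in HCC38, against 56.2 and 59.1 CPM in SUM149PT. Among the basal markers 4 rose and 4 fell in the mean of the lines, with FOXC1 (0.68 on the log2 scale) and KRT6B (0.69) higher and KRT5 (−0.41) and CDH3 (−0.41) lower. Of 6 luminal and receptor markers tested, FOXA1 rose (0.75) and GATA3 (−0.20), ESR1 (−0.80) and KRT18 (−0.14) fell, with ESR1 averaging at most 7.02 CPM in any group and PGR too low to test. Under upper quartile normalization, which scales libraries by an upper count in place of TMM, 3 of these rose and 1 fell, without GATA3 (−0.09) and KRT18 (−0.03), and with the trend over gene span (the genomic length from start to end) removed from each library ESR1 was at −0.12 and not called. Leaving out 1 library at a time ended the KRT18 call in 5 of 12 fits, the ESR1 call without HCC38 LNA NS replicate 2 (−0.63), and that of PDGFRB without MDA-MB-468 knock-down replicate 2 (−0.91) or SUM149PT LNA NS replicate 1 (−0.78). Of 9 fibroblast and immune markers 4 were tested, and COL1A1 was the most abundant of them, averaging 115.0 CPM in HCC38 after knock-down and 96.9 CPM with LNA NS; its mean log2 fold change of 0.02 did not pass. CD14 (−0.51) and PDGFRB (−1.03) fell, and DCN (0.53) did not pass in the mean and was at 0 CPM in MDA-MB-468. In SUM149PT, DCN rose (0.82, edgeR adjusted p = 0.0082), averaging 16.0 CPM after knock-down and 9.06 CPM with LNA NS. The part of these markers in the members' changes was not tested.

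As a mean of the 3 lines, knock-down moved the axis in both directions. CKS1B, CDC25A and CDKN1B rose, while CCNE1, CDK2, SKP2 and FBXW7 fell and CCNE2 did not pass the test. Thus 7 of 8 members were called, where 54.8% of all 21325 tested genes were called. Calls used the quasi-likelihood test of edgeR and a limit of 0.1 on the adjusted p, which is the study's false discovery rate. The study also required a fold change over 2, which was not required here. No member reached it in any line, and the largest change was FBXW7 in HCC38, at 0.618 times its LNA NS level. The median log2 fold change of the members was −0.11, against 0.04 for all tested genes. Under upper quartile normalization 3 members rose and 2 fell, without CDK2 and SKP2, and with the trend over gene span removed 4 rose and 4 fell. By line, 5 members were called in MDA-MB-468 (background 50.6%), 2 in SUM149PT (background 38%) and 4 in HCC38 (background 34%). The knock-down and LNA NS libraries did not overlap for 6 members in MDA-MB-468 (69.8% of all tested genes), for 6 in SUM149PT (background 63.1%) and for 5 in HCC38 (background 61.5%). The response reached a large part of the transcriptome, and the counts of members were read against these shares. In bulk RNA, fewer cells of a type and less RNA per cell cannot be told apart.

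**Figure D1:**
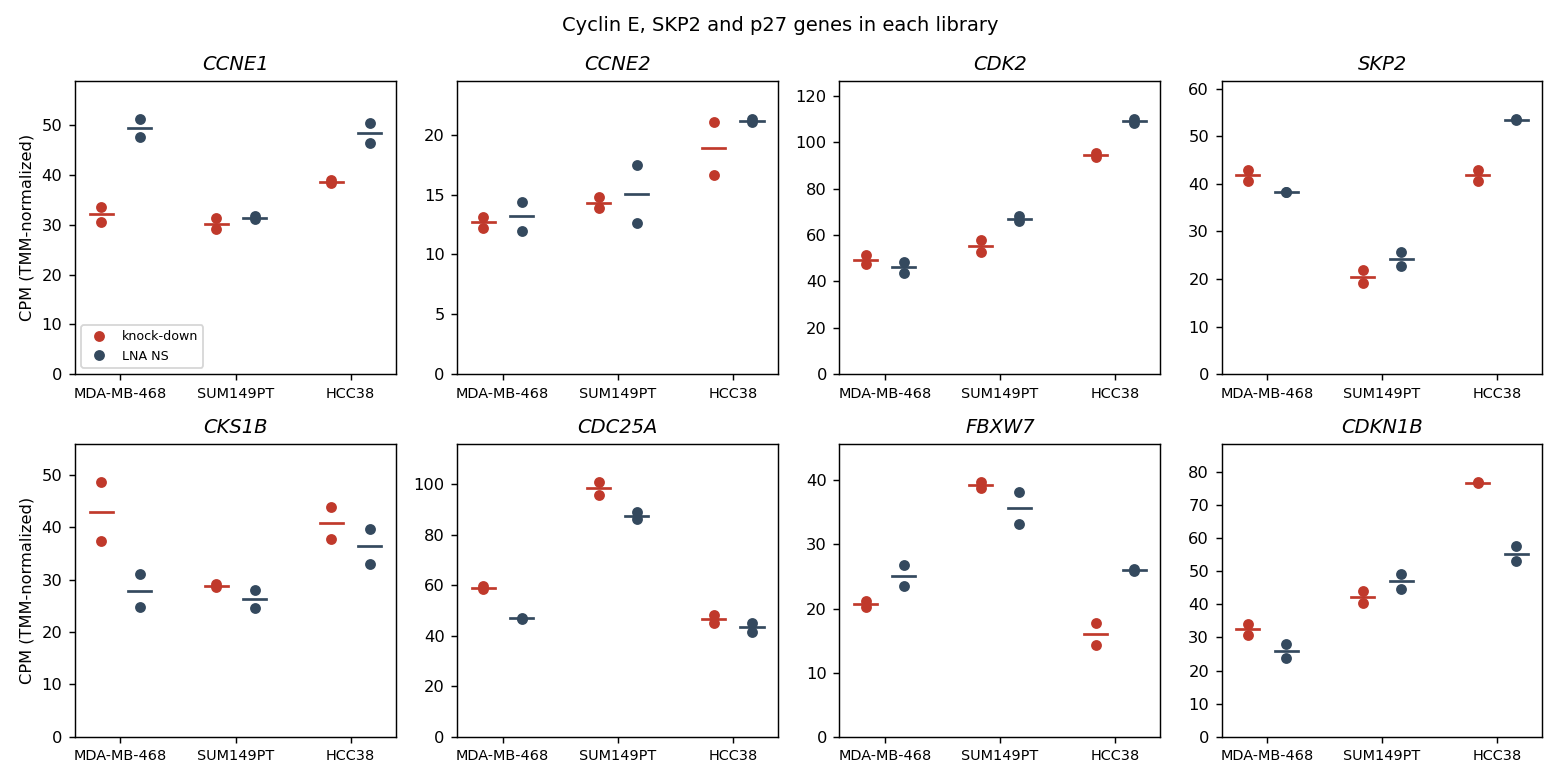
Level of each member in the 12 libraries, in TMM-normalized CPM (y axis from 0), by cell line (x axis), with knock-down (red) left of LNA NS (dark blue). Each point is a library and each bar a group mean of 2 libraries; CCNE1 lies at 30.5 to 33.7 CPM after knock-down and 47.7 to 51.2 CPM with LNA NS in MDA-MB-468, and the groups overlap in SUM149PT.

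CCNE1 encodes cyclin E1 and lies on chromosome 19 (GRCh37, 30302898 to 30315219, plus strand). It fell in MDA-MB-468 and HCC38, and its response differed between the lines. In MDA-MB-468, CCNE1 was at 33.7 and 30.5 CPM in the knock-down libraries and 51.2 and 47.7 CPM in the LNA NS libraries. In HCC38, CCNE1 was at 39.0 and 38.4 CPM after knock-down and 50.6 and 46.4 CPM with LNA NS. In SUM149PT the values were 31.4 and 29.1 CPM after knock-down and 31.2 and 31.7 CPM with LNA NS. Both knock-down libraries were thus below both LNA NS libraries in MDA-MB-468 and HCC38, and the groups overlapped in SUM149PT. The LNA NS level of SUM149PT lay near the knock-down level of MDA-MB-468, and whether this bears on its response was not tested. CCNE1 had a log2 fold change of −0.62 in MDA-MB-468 (standard error 0.0992, edgeR adjusted p = 8.9e-05), a level 0.649 times that of LNA NS. It was −0.32 in HCC38 (standard error 0.0983, edgeR adjusted p = 0.023), a call lost without LNA NS replicate 1 (highest adjusted p without any 1 library 0.17), without knock-down replicate 2, and under upper quartile normalization. For CCNE1 in SUM149PT it was −0.05, with a 95% interval from −0.27 to 0.16 and an edgeR adjusted p of 0.74. The 3 responses differed (edgeR adjusted p = 0.023, lost without MDA-MB-468 knock-down replicate 2), and the change in MDA-MB-468 was larger than that in SUM149PT by −0.57 on the log2 scale (edgeR adjusted p = 0.018).

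CCNE2 encodes cyclin E2, the paralog that binds the same kinase, and lies on chromosome 8 (95891998 to 95908906, minus strand). It had the smallest mean change of the members, and no comparison of knock-down with LNA NS passed the test as fitted. In MDA-MB-468, CCNE2 was at 12.2 and 13.2 CPM after knock-down and 12.0 and 14.4 CPM with LNA NS. In SUM149PT, CCNE2 was at 14.8 and 13.8 CPM after knock-down and 17.5 and 12.6 CPM with LNA NS. In HCC38, CCNE2 was at 21.1 and 16.6 CPM after knock-down and 21.0 and 21.3 CPM with LNA NS. The groups overlapped in all 3 lines. The mean log2 fold change was −0.10 with a 95% interval from −0.29 to 0.10 (edgeR adjusted p = 0.42), so changes within this interval could not be told from none. With the trend over gene span removed the mean was −0.20 and passed (edgeR adjusted p = 0.078), and under upper quartile normalization it was 0.01. The ratio of CCNE1 to CCNE2, both per kb of transcript, was 3.77 and 3.17 in the knock-down libraries of MDA-MB-468 and 5.85 and 4.53 in its LNA NS libraries, without overlap, and the groups overlapped in SUM149PT and HCC38. CCNE1 was the more abundant E-type cyclin per kb in every library, with ratios between 2.44 and 5.85.

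CDK2, the kinase subunit, lies on chromosome 12 (56360565 to 56366573, plus strand). It fell in SUM149PT, where it was at 57.9 and 52.8 CPM in the knock-down libraries and 66.1 and 68.0 CPM in the LNA NS libraries, without overlap. The log2 fold change there was −0.28 (standard error 0.092, edgeR adjusted p = 0.032), a call lost without either LNA NS library or knock-down replicate 2 of this line, with adjusted p up to 0.25. In HCC38, CDK2 was at 95.4 and 93.6 CPM after knock-down and 110.0 and 108.3 CPM with LNA NS. These groups did not overlap either, but the log2 fold change of −0.21 (95% interval −0.40 to −0.01) did not pass after adjustment (edgeR adjusted p = 0.11). It passed with the trend over gene span removed, at −0.35 (edgeR adjusted p = 0.0066). In MDA-MB-468 the values were 47.5 and 51.2 CPM after knock-down and 48.6 and 43.7 CPM with LNA NS, which overlap, with a log2 fold change of 0.10 (95% interval −0.10 to 0.30, edgeR adjusted p = 0.42), which was 0.24 and called under upper quartile normalization (edgeR adjusted p = 0.047). The mean log2 fold change of −0.13 passed at an edgeR adjusted p of 0.056 and was lost in 5 of the 12 fits without 1 library, with adjusted p up to 0.17. It was also lost under upper quartile normalization (−0.02, edgeR adjusted p = 0.8), with no filter on low counts and with a minimum of 10 counts in every library. The difference between lines passed at an edgeR adjusted p of 0.086 and was lost in 11 of these 12 fits, with adjusted p up to 0.36, and with no filter on low counts.

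CDC25A, the phosphatase that activates CDK2, lies on chromosome 3 (48198636 to 48229907, minus strand). It rose on average by 0.20 on the log2 scale (standard error 0.0512, edgeR adjusted p = 0.0036), and the 3 lines were not shown to differ (edgeR adjusted p = 0.36). In MDA-MB-468, CDC25A was at 58.7 and 59.5 CPM after knock-down and 46.7 and 47.0 CPM with LNA NS. In SUM149PT, CDC25A was at 100.9 and 95.8 CPM after knock-down and 88.8 and 86.1 CPM with LNA NS. In HCC38, CDC25A was at 48.4 and 45.0 CPM after knock-down and 41.6 and 45.1 CPM with LNA NS. The groups were apart in MDA-MB-468 and SUM149PT and overlapped in HCC38, where knock-down replicate 2 was level with LNA NS replicate 2. For CDC25A in MDA-MB-468 the log2 fold change was 0.33 (standard error 0.0892, edgeR adjusted p = 0.0061), and that call and the mean were kept in each of the 12 fits without 1 library. The log2 fold changes of 0.17 in SUM149PT (95% interval −0.02 to 0.36, edgeR adjusted p = 0.16) and 0.11 in HCC38 (95% interval −0.08 to 0.30, edgeR adjusted p = 0.42) did not pass. Both were called under upper quartile normalization (lowest edgeR adjusted p 0.05 and 0.056), that of SUM149PT also with a minimum of 10 counts in every library.

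CDKN1B, which encodes p27, lies on chromosome 12 (12838432 to 12875303, plus strand). Its mRNA rose in 2 of the 3 lines. In HCC38, CDKN1B was at 77.0 and 76.6 CPM in the knock-down libraries and 53.1 and 57.5 CPM in the LNA NS libraries. In MDA-MB-468, CDKN1B was at 30.8 and 34.1 CPM after knock-down and 23.8 and 28.0 CPM with LNA NS. In SUM149PT, CDKN1B was at 40.5 and 44.1 CPM after knock-down and 49.1 and 44.7 CPM with LNA NS. No line showed overlap: the knock-down libraries were the higher ones in HCC38 and MDA-MB-468 and the lower ones, by a small margin, in SUM149PT. The log2 fold change was 0.47 in HCC38 (standard error 0.106, edgeR adjusted p = 0.0034), kept in each of the 12 fits without 1 library. It was 0.33 in MDA-MB-468 (standard error 0.109, edgeR adjusted p = 0.023), a call lost on leaving out, from this line, either LNA NS replicate 1 or the knock-down library of replicate 2 (adjusted p up to 0.27). For CDKN1B in SUM149PT it was −0.15, with a 95% interval from −0.38 to 0.08 (edgeR adjusted p = 0.32). The responses differed between lines (edgeR adjusted p = 0.016), with SUM149PT below HCC38 by 0.62 on the log2 scale (difference −0.62, edgeR adjusted p = 0.017) and MDA-MB-468 above SUM149PT by 0.48 (edgeR adjusted p = 0.06).

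SKP2, the F-box protein that recognizes p27, lies on chromosome 5 (36152091 to 36196951, plus strand). It fell in HCC38 and SUM149PT and not in MDA-MB-468. In HCC38, SKP2 was at 43.0 and 40.5 CPM after knock-down and 53.6 and 53.4 CPM with LNA NS. In SUM149PT, SKP2 was at 21.8 and 19.1 CPM after knock-down and 25.8 and 22.7 CPM with LNA NS. In MDA-MB-468, SKP2 was at 40.7 and 42.9 CPM after knock-down and 38.3 and 38.3 CPM with LNA NS. The groups did not overlap in any line, and the knock-down libraries were the higher ones in MDA-MB-468 alone. The log2 fold change in HCC38 was −0.36 (standard error 0.101, edgeR adjusted p = 0.016), lost without knock-down replicate 2 (adjusted p = 0.12). For SKP2 in SUM149PT it was −0.24 (standard error 0.105, edgeR adjusted p = 0.095), which was lost in 10 of the 12 fits without 1 library, with adjusted p up to 0.52, under upper quartile normalization, with no filter on low counts and with only the libraries of this line. For SKP2 in MDA-MB-468 it was 0.13, with a 95% interval from −0.09 to 0.34 (edgeR adjusted p = 0.34), and it was 0.26 and called under upper quartile normalization (edgeR adjusted p = 0.035). The responses of MDA-MB-468 and HCC38 differed by 0.48 on the log2 scale (edgeR adjusted p = 0.027). The test over all 3 lines gave an edgeR adjusted p of 0.047 and was lost in 5 of the 12 fits, with adjusted p up to 0.17. The mean log2 fold change was −0.16 (edgeR adjusted p = 0.038), lost without SUM149PT LNA NS replicate 1 or knock-down replicate 2 (adjusted p up to 0.15) and under upper quartile normalization.

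CKS1B, the cofactor of SKP2, lies on chromosome 1 (154947129 to 154951727, plus strand). It rose on average, against the direction of SKP2. In MDA-MB-468, CKS1B was at 37.4 and 48.7 CPM after knock-down and 31.1 and 24.7 CPM with LNA NS. In SUM149PT, CKS1B was at 29.2 and 28.6 CPM after knock-down and 24.6 and 28.1 CPM with LNA NS. In HCC38, CKS1B was at 37.7 and 43.9 CPM after knock-down and 39.7 and 33.1 CPM with LNA NS. The groups were apart in MDA-MB-468, nearly touched in SUM149PT and overlapped in HCC38, and the spread within groups was wide. CKS1B had a log2 fold change of 0.63 in MDA-MB-468 (standard error 0.147, edgeR adjusted p = 0.0025), a level 1.54 times that of LNA NS. It was 0.13 in SUM149PT (95% interval −0.18 to 0.45, edgeR adjusted p = 0.55) and 0.16 in HCC38 (95% interval −0.14 to 0.47, edgeR adjusted p = 0.45). The mean was 0.31 (standard error 0.0849, edgeR adjusted p = 0.0066), and the lines were not shown to differ (edgeR adjusted p = 0.15). That difference was called with the DESeq2 test and with no filter on low counts. The gene has 7 processed copies in the annotation, so reads could be split between near-identical sequences. CKS1BP6 held up to 138 counts in a library and the others at most 4, against at least 862 counts for CKS1B.

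FBXW7, the F-box protein that recognizes cyclin E, lies on chromosome 4 (153241696 to 153457244, minus strand). In HCC38, FBXW7 was at 17.8 and 14.3 CPM after knock-down and 26.2 and 25.8 CPM with LNA NS. In MDA-MB-468, FBXW7 was at 20.3 and 21.1 CPM after knock-down and 26.8 and 23.4 CPM with LNA NS. In SUM149PT, FBXW7 was at 39.7 and 38.8 CPM after knock-down and 38.1 and 33.2 CPM with LNA NS. No line showed overlap: knock-down libraries were lower in HCC38 and MDA-MB-468 and higher in SUM149PT. The log2 fold change was −0.69 in HCC38 (standard error 0.123, edgeR adjusted p = 5.8e-04), the largest in size over the members and lines, and was kept in each of the 12 fits without 1 library. For FBXW7 in MDA-MB-468 it was −0.28 (standard error 0.123, edgeR adjusted p = 0.079), a call lost on leaving out LNA NS replicate 1 or either knock-down library of the line (adjusted p up to 0.4), under upper quartile normalization (−0.14, adjusted p = 0.36) and with no filter on low counts. For FBXW7 in SUM149PT it was 0.14, with a 95% interval from −0.12 to 0.39 (edgeR adjusted p = 0.43). The lines differed (edgeR adjusted p = 0.0081), and SUM149PT lay above HCC38 by 0.83 on the log2 scale (edgeR adjusted p = 0.0079).

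FBXW7 is also the longest member. It spans 215549 bp, where the median tested gene spans 21770 bp and the other members span 4599 to 44861 bp. The 1950 tested genes of over 150 kb had a median log2 fold change of −0.44 in HCC38, −0.68 in MDA-MB-468 and −0.25 in SUM149PT, and 53.64% of them fell in the mean comparison, against 26.46% of all tested genes. With the trend over gene span removed from each library, the log2 fold change of FBXW7 was 0.31 in MDA-MB-468 (edgeR adjusted p = 0.032), 0.37 in SUM149PT (edgeR adjusted p = 0.016) and −0.27 in HCC38 (edgeR adjusted p = 0.084). Its mean of −0.28 (standard error 0.0703, edgeR adjusted p = 0.0037) turned to 0.14 in that fit (edgeR adjusted p = 0.092). The difference between lines was still called there (edgeR adjusted p = 0.011). The direction of FBXW7 in MDA-MB-468 and on average therefore depended on this correction, while the difference between lines did not. Under the same correction the other called means kept their directions.

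**Figure D2:**
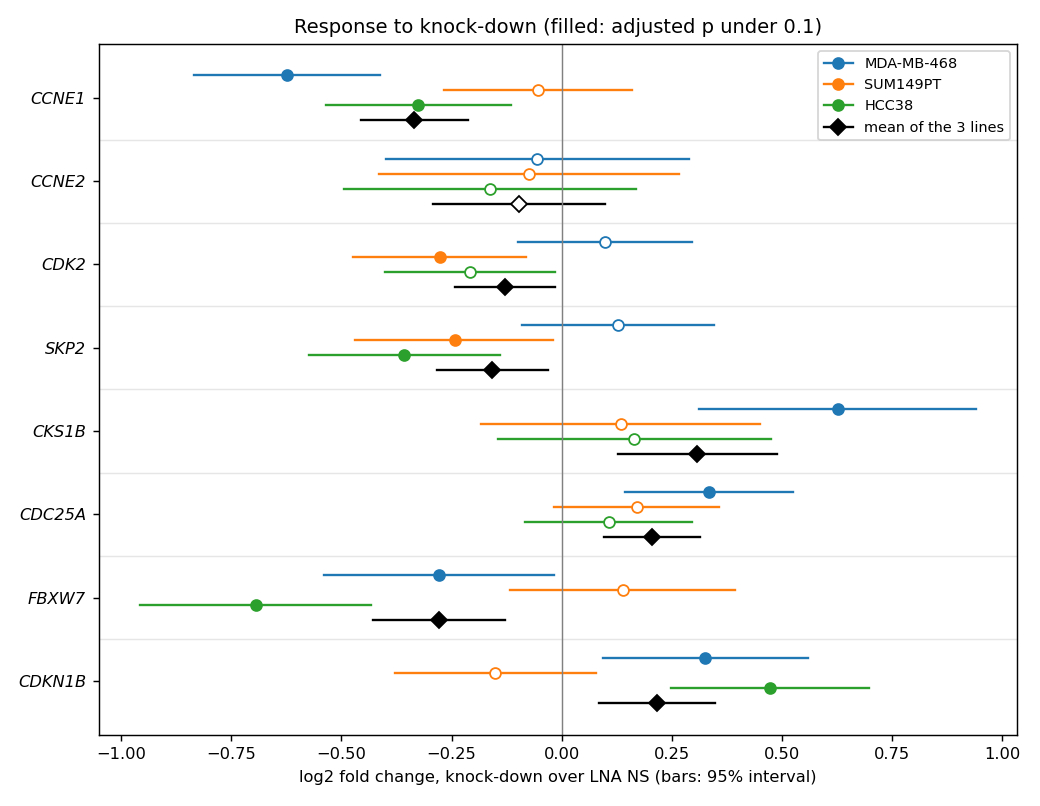
Log2 fold change of knock-down over LNA NS (x axis) for each member (y axis) in MDA-MB-468, SUM149PT and HCC38 and as the mean of the 3 lines, with 95% intervals from the edgeR fit. Filled points have an adjusted p under 0.1; CCNE1 ranges from −0.62 in MDA-MB-468 to −0.05 in SUM149PT, and FBXW7 and CDKN1B lie on opposite sides of 0 in HCC38 and SUM149PT.

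By line, the called members thus formed different combinations. In MDA-MB-468, CKS1B, CDC25A and CDKN1B rose (24.9% of all tested genes rose) and CCNE1 and FBXW7 fell (25.7% fell). In HCC38, CDKN1B rose (background 15.5%) and CCNE1, SKP2 and FBXW7 fell (background 18.4%). In SUM149PT, CDK2 and SKP2 fell (background 18%) and no member rose (background 20%). Responses differed between lines for 5 members, CCNE1, CDK2, SKP2, FBXW7 and CDKN1B, where 32.4% of all tested genes differed. Between MDA-MB-468 and SUM149PT 3 members differed (background 15.2%), 2 of them with the higher fold change in MDA-MB-468 (background 5.28%) and 1 with the lower (background 9.94%). Between MDA-MB-468 and HCC38 1 member differed (background 26.8%), higher in MDA-MB-468 (background 13%, and 13.8% lower). Between SUM149PT and HCC38 2 members differed (background 16.2%), 1 higher in SUM149PT (background 9.55%) and 1 lower (background 6.64%). The third member in the MDA-MB-468 and SUM149PT pair was CDK2, at a difference of 0.38 on the log2 scale (edgeR adjusted p = 0.083).

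Ratios between members within a library do not depend on its scaling. They are given per kb of the canonical transcript, as a description. CDKN1B over CCNE1, an inhibitor against the cyclin it binds, was 0.741 and 0.906 in the knock-down libraries of MDA-MB-468 and 0.376 and 0.475 in its LNA NS libraries. In HCC38 this ratio was 1.60 and 1.62 after knock-down and 0.851 and 1.00 with LNA NS. In SUM149PT it was 1.04 and 1.23 after knock-down and 1.28 and 1.14 with LNA NS. The ratio was thus higher after knock-down by 0.95 in MDA-MB-468 and 0.80 in HCC38 on the log2 scale, without overlap, and overlapped in SUM149PT. SKP2 over CDKN1B, the ligase subunit against its substrate, was 0.362 and 0.343 in the knock-down libraries of HCC38 and 0.654 and 0.603 in its LNA NS libraries. It was 0.858 and 0.818 after knock-down and 1.05 and 0.888 with LNA NS in MDA-MB-468, and overlapped in SUM149PT. CKS1B over SKP2 was higher after knock-down in all 3 lines without overlap, with log2 differences of 0.53 in HCC38, 0.50 in MDA-MB-468 and 0.38 in SUM149PT. In SUM149PT the margin was small, at 6.4 and 7.13 after knock-down and 4.56 and 5.9 with LNA NS. The levels of 61.5% (HCC38) to 69.8% (MDA-MB-468) of all tested genes did not overlap either, and no such share was computed for ratios.

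**Figure D3:**
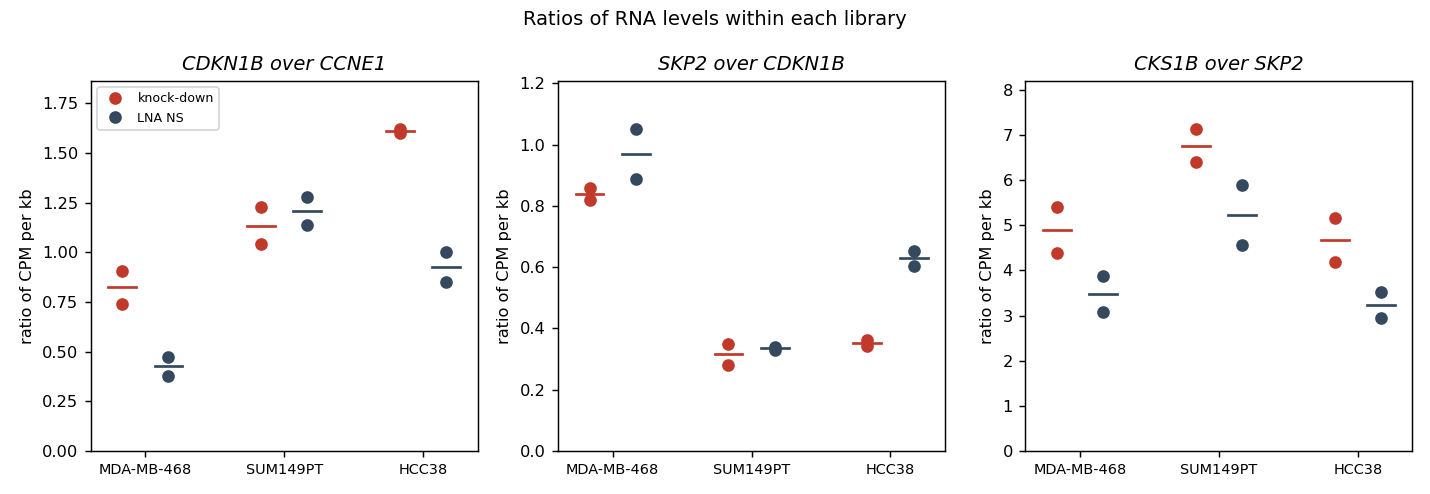
Ratios of members' levels (CPM per kb of canonical transcript, y axes from 0) in each library, by cell line (x axis), with knock-down (red) left of LNA NS (dark blue); bars are means of 2 libraries. CDKN1B over CCNE1 is above the LNA NS libraries in both knock-down libraries of MDA-MB-468 (0.741 and 0.906) and HCC38 (1.60 and 1.62), and CKS1B over SKP2 is above them in each line.

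The lines also differed in these genes with LNA NS alone. In LNA NS libraries, 6 members differed between MDA-MB-468 and SUM149PT (background 68.5%), 2 higher in MDA-MB-468 (background 35.3%) and 4 lower (background 33.2%). Between MDA-MB-468 and HCC38 5 differed (background 71.4%), all lower in MDA-MB-468 (background 37.7%, and 33.7% higher). Between SUM149PT and HCC38 all 8 differed (background 69.6%), 2 higher in SUM149PT (background 31.6%) and 6 lower (background 38%). These contrasts compare 1 line with another and carry every difference of culture and genotype between them. HCC38 had the highest CDK2, SKP2, CKS1B, CCNE2 and CDKN1B of the 3 lines, with CDK2 in MDA-MB-468 below HCC38 by 1.24 on the log2 scale (difference −1.24, edgeR adjusted p = 7.8e-09). SUM149PT had the highest CDC25A, at 87.5 CPM against 43.4 CPM in HCC38, a 2.02-fold difference (edgeR adjusted p = 7.1e-08). SUM149PT also had the lowest CCNE1 and SKP2, with CCNE1 in MDA-MB-468 above SUM149PT by 0.65 on the log2 scale (edgeR adjusted p = 3.0e-05) and SKP2 in SUM149PT below HCC38 by 1.14 (difference −1.14, edgeR adjusted p = 1.0e-07). MDA-MB-468 had the lowest CDKN1B, 0.551 times the level of SUM149PT (edgeR adjusted p = 4.1e-06). CCNE1, CDC25A and FBXW7 did not differ beyond their spread between MDA-MB-468 and HCC38, with differences of 0.03, 0.11 and −0.05, nor did CCNE2 and CKS1B between MDA-MB-468 and SUM149PT (−0.19 and 0.08). The difference in CDKN1B between SUM149PT and HCC38 (−0.24, edgeR adjusted p = 0.063) was lost without LNA NS replicate 2 of either line (adjusted p up to 0.32). Those of CKS1B between HCC38 and the other lines were lost without HCC38 LNA NS replicate 1 and without 1 library of the other line (MDA-MB-468 LNA NS replicate 2 or SUM149PT LNA NS replicate 1, adjusted p up to 0.33), and that of CCNE2 between SUM149PT and HCC38 without SUM149PT LNA NS replicate 2 (adjusted p = 0.2). Genes annotated on the opposite strand overlap CCNE2 (INTS8), CDK2 (PMEL), SKP2 (NADK2), CDKN1B (GPR19) and FBXW7 (FBXW7-AS1), and whether the counting used strand is not given in any source used here, so their reads may be mixed.

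Per kb of canonical transcript, CKS1B and CDK2 were the most abundant members with LNA NS in HCC38, at 46.7 ± 5.99 and 48.7 ± 0.553 CPM per kb (SD, n = 2 libraries each). In MDA-MB-468 the order of means with LNA NS was CKS1B at 35.8, CCNE1 at 25.3, CDK2 at 20.6, CDC25A at 12.2, CDKN1B at 10.7, SKP2 at 10.3, CCNE2 at 4.93 and FBXW7 at 4.45 CPM per kb. CDKN1B and SKP2, and likewise CCNE2 and FBXW7, were closer to each other than their libraries were spread. In SUM149PT the order was CKS1B, CDK2, CDC25A, CDKN1B, CCNE1, SKP2, FBXW7 and CCNE2, from 33.8 down to 5.63 CPM per kb, and the last 3 lay within the spread of CCNE2. FBXW7 and CCNE2 were the least abundant in each line. The order depends on the length used: over all annotated exons SKP2 (17377 bp in place of 3715 bp) and CDKN1B (9255 bp in place of 2411 bp) move down, with SKP2 at 2.20 CPM per kb in MDA-MB-468. CKS1B (2340 bp in place of 779 bp) moves down as well, to 11.3 CPM per kb in SUM149PT, below CDC25A (21.1), CDK2 (17.3) and CCNE1 (12.8), and to 15.5 CPM per kb in HCC38, below CDK2 (28.1) and CCNE1 (19.7). In MDA-MB-468 it was then at 11.9 CPM per kb, below CCNE1 (20.1) and level with CDK2.

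**Figure D4:**
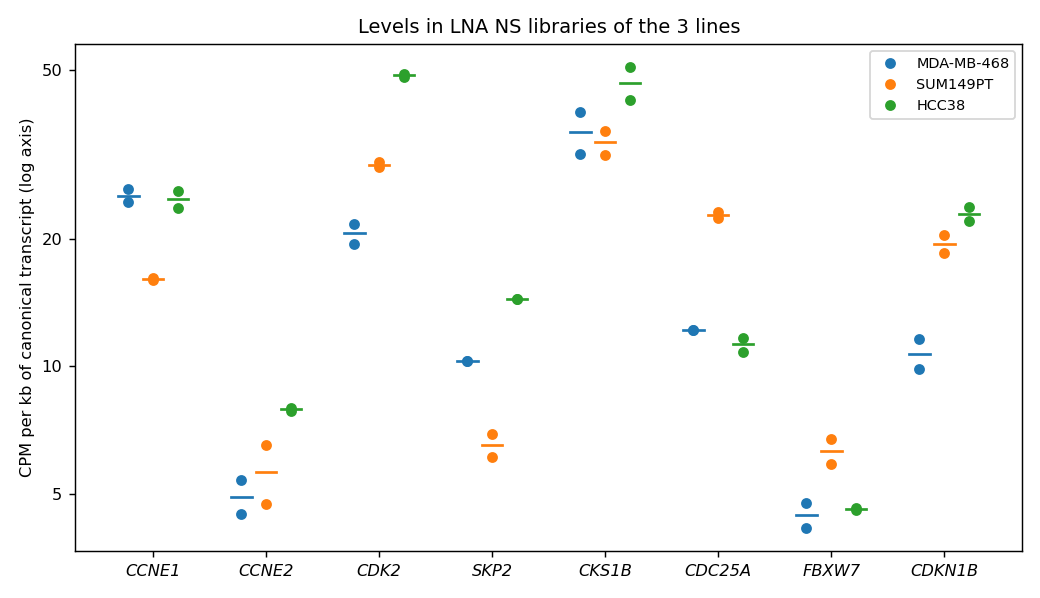
Level of each member in LNA NS libraries of the 3 lines, in CPM per kb of canonical transcript (log axis); points are libraries and bars means of 2. CDK2 is at 20.6 in MDA-MB-468 and 48.7 in HCC38, and CDC25A is at 22.8 in SUM149PT and 11.3 in HCC38.

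Promoter sequence is shown for the members whose call in the mean of the lines was kept in every fit. Promoters were taken from RefSeq (GRCh38.p14, 250 bases before to 50 after the start), where 6 of the 8 members had an entry. CDC25A, CKS1B and CDKN1B, which rose on average, and CCNE1, which fell on average, are given. The responses of CDKN1B and CCNE1 differed between lines. Capitals mark the letters searched on both strands: the E2F-type letters TTTCCCGC, TTTGGCGC, TTTCGCGC and TTTGCCGC, the CCAAT box bound by NF-Y, and the GC box GGGCGG bound by SP1. Their positions are chr3:48188368-48188667 (minus strand) for CDC25A, chr1:154974431-154974730 (plus strand) for CKS1B, chr12:12717118-12717417 (plus strand) for CDKN1B and chr19:29811741-29812040 (plus strand) for CCNE1.
CDC25A: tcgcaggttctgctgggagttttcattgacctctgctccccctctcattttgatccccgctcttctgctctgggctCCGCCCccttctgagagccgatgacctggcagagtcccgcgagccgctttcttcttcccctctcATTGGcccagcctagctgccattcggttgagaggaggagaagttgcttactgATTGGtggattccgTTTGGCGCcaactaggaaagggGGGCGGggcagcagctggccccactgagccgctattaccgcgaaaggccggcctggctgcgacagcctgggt
CKS1B: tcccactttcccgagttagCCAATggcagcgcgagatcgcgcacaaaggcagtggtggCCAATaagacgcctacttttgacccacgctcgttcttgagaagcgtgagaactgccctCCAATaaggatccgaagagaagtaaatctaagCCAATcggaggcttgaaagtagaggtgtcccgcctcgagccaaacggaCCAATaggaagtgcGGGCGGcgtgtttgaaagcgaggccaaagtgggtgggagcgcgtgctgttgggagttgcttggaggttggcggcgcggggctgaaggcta
CDKN1B: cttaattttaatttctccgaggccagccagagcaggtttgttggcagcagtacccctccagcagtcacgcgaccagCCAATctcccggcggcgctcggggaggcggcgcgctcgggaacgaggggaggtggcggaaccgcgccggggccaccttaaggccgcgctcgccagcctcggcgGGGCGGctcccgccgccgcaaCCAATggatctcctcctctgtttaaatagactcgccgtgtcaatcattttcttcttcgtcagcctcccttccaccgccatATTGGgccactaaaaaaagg
CCNE1: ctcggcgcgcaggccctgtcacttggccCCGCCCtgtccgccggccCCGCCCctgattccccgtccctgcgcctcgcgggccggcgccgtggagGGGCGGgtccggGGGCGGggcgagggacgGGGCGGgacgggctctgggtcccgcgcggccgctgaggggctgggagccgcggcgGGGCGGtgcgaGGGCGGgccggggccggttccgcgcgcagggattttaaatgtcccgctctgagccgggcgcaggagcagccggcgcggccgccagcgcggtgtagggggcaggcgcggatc
An E2F-type match was found in the CDC25A window alone among the members with an entry, starting 44 bases before the start, while 3.31% of 35116 promoters of the same length hold one. The CKS1B window holds 5 CCAAT boxes and 1 GC box, that of CDKN1B 3 and 1, and that of CDC25A 2 and 2. The CCNE1 window holds 7 GC boxes and no CCAAT box. Over all promoters, 34.61% hold a CCAAT box and 44.95% a GC box. The forkhead letters GTAAACA, present in 3.42% of promoters, were in none of the members' windows. A match is a description of letters and shows no binding. The lack of a match does not show that a site is absent, since only these exact letters in these windows were searched.

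Related genes were taken from 7 other lists, and are counted in the mean comparison, with the backgrounds of 28.4% risen and 26.5% fallen. Of 12 genes of the SCF core and its neddylation, 2 rose, 6 fell and 4 did not pass, with a median log2 fold change of −0.09. Under upper quartile normalization 4 of them rose and 4 fell, with a median of 0.02. UBE2F, a NEDD8-conjugating enzyme, fell in each line, at log2 fold changes of −0.57 in HCC38, −0.90 in MDA-MB-468 and −0.90 in SUM149PT (mean −0.79, edgeR adjusted p = 1.4e-05). CUL1, the scaffold of the SCF ligase, had −0.69 in HCC38, −0.14 in MDA-MB-468 and 0.08 in SUM149PT, and fell on average by 0.25 (edgeR adjusted p = 0.0014). UBE2R2, a ubiquitin-conjugating enzyme that works with SCF, fell (mean −0.34, −0.86 in MDA-MB-468), and UBA3, a subunit of the NEDD8-activating enzyme, rose (mean 0.25). Under the other settings the mean ranged from −0.26 to −0.10 for CUL1 and from −0.36 to −0.19 for UBE2R2, and both calls were kept.

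Of 12 regulators of p27 and SKP2, 5 rose, 4 fell and 3 did not pass, and under upper quartile normalization 6 rose and 3 fell. AKT1, the kinase that phosphorylates p27 and FOXO factors, fell in each line, with −0.54 in HCC38, −1.07 in MDA-MB-468 and −0.70 in SUM149PT on the log2 scale (mean −0.77, edgeR adjusted p = 6.6e-09). UBAC1, a subunit of the KPC ligase that acts on p27 in G1, also fell in each line (mean −0.74). UHMK1, a kinase of p27, had a mean of 0.77, with 0.27 in HCC38, 1.18 in MDA-MB-468 and 0.87 in SUM149PT. FOXO4, a forkhead factor whose family activates CDKN1B, rose in each line, with 1.10 in HCC38, 0.56 in MDA-MB-468 and 0.67 in SUM149PT (mean 0.78, edgeR adjusted p = 4.1e-06). In SUM149PT, FOXO4 rose and CDKN1B did not pass, and a link between these genes was not tested.

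Of 7 other CDK inhibitors, 1 rose, 3 fell and 3 did not pass. The median log2 fold change of this list was 0.23, on the other side of 0 from most of its calls. That median included CDKN2A and CDKN2B, which averaged at most 0.108 CPM in any group of SUM149PT and HCC38. In MDA-MB-468, CDKN2B rose (1.59 on the log2 scale, edgeR adjusted p = 4.6e-06), averaging 70.4 CPM after knock-down and 23.3 CPM with LNA NS. CDKN2A fell in that line (−0.725, edgeR adjusted p = 6.9e-04), averaging 89.4 CPM after knock-down and 148.0 CPM with LNA NS. With a minimum of 10 counts in every library 5 genes were left, of which 1 rose and 3 fell, and the median was −0.17. CDKN1A, which encodes p21, fell in MDA-MB-468 (−0.66 on the log2 scale, with 0.11 in HCC38 and −0.06 in SUM149PT), and its mean of −0.21 (edgeR adjusted p = 0.0056) was lost under upper quartile normalization (−0.10, adjusted p = 0.19). CDKN2C, the inhibitor p18, fell (mean −0.40), CDKN3, a phosphatase of CDK2, fell (mean −0.33), and CDKN2D, the inhibitor p19, rose (mean 0.34, and 0.82 in MDA-MB-468). Of 15 other cyclins, activators and inhibitory kinases of CDK2 and CDK1, 5 rose, 5 fell and 5 did not pass, and under upper quartile normalization 7 rose and 3 fell. CCNA1, a cyclin A, rose in each line, at log2 fold changes of 0.94 in HCC38, 1.95 in MDA-MB-468 and 0.82 in SUM149PT. MNAT1, the assembly factor of the CDK-activating kinase, fell in each line (mean −0.93). Under the other settings its mean ranged from −0.94 to −0.48, and the call was kept. WEE1, a kinase that places an inhibitory phosphate on CDKs, rose (mean 0.57), while PKMYT1, a second kinase of this kind, fell (mean −0.51).

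Of 6 other genes of cyclin E turnover, 3 rose, 1 fell and 2 did not pass, and with the trend over gene span removed 5 rose and 1 fell. GSK3A, a kinase that phosphorylates substrates of FBXW7, rose (mean 0.33), as did the F-box gene FBXO28 (mean 0.37) and USP28, a deubiquitinase of FBXW7 substrates (mean 0.23). Of 12 E2F factors and pocket proteins, 2 rose, 7 fell and 3 did not pass. TFDP1, the dimer partner of E2F factors, fell in each line, at log2 fold changes of −0.60 in HCC38, −2.08 in MDA-MB-468 and −1.47 in SUM149PT. E2F1 fell (mean −0.32), with −0.01 in HCC38, −0.58 in MDA-MB-468 and −0.36 in SUM149PT. RBL2, the pocket protein p130, fell in each line (mean −0.67), and TFDP2 (mean −0.46) kept its direction but was not called with the span trend removed (−0.07).

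Of 20 genes of replication origin licensing and firing, on which CDK2 acts, 4 rose, 10 fell and 6 did not pass, with a median log2 fold change of −0.16. Under upper quartile normalization 6 rose and 9 fell (median −0.06), and with the trend over gene span removed 3 rose and 14 fell (median −0.25). MCM3, a subunit of the replicative helicase, fell in each line, with −0.41 in HCC38, −1.31 in MDA-MB-468 and −0.45 in SUM149PT. CDC45 (mean −0.72) and GINS2 (mean −0.60), which join that helicase, fell in each line as well. ORC6, a subunit of the origin recognition complex, rose in each line, with 0.29 in HCC38, 1.18 in MDA-MB-468 and 0.72 in SUM149PT. Within these lists, as in the axis itself, genes that rose and genes that fell stood side by side.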

How the data were processed

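Libraries were made with a strand-specific polyA kit, 2 for each line and treatment. The files deposited by the authors hold raw counts (whole numbers) for Ensembl genes. The study's methods name STAR and HTSeq 0.6.0 on GRCh37, whereas the submitters' processing notes list TopHat2 2.0.13, so the aligner of these counts is uncertain; no source used here gives the annotation release. A further 5 lines that name no gene (40.8% to 53.7% of counts per library) were left out.

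The filter filterByExpr, with a minimum count of 10 and a total of 15, kept 21325 genes. In R 4.3.3, edgeR 4.0.16 (on limma 3.58.1) normalized by TMM and fitted 1 mean for each of 6 groups by quasi-likelihood, with 6 residual degrees of freedom and a common dispersion of 0.0109. The contrasts were the knock-down effect of each line, their mean, their differences, and LNA NS between lines. P-values were Benjamini-Hochberg adjusted over all tested genes, and "rose" or "fell" means an adjusted p under 0.1. Standard errors and 95% intervals are those of the fit. The chi-square of replicate counts was 16.3 to 29.5 per degree of freedom, above sampling noise.

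The 8 members, the gene lists and the alternatives were chosen with earlier results of these data known. All members are named; from each other list the text takes up to 4 genes with the smallest adjusted p in the mean comparison, and markers beside them, namely KRT14 and PGR, were chosen after their values were seen (a few genes that the rule or lists hold are not reported here); for each member the 2 protein-coding genes with the highest Pearson correlation are named. Positions and names come from GENCODE v44 lifted to GRCh37, which matched 55665 of 63677 genes; the others held 0.636% of counts. Alternatives were other normalizations, DESeq2 1.42.0, other filters, a fit per line, a replicate block, removal of a trend over gene span, and leaving out each library. The fits were checked on simulated counts. Figures were drawn with matplotlib 3.10.9 in Python 3.11.15.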

Additional observations from a re-analysis of the deposited data

Results flagged for a closer look

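The response to knock-down differed between the 3 lines for 5 members by edgeR's test of the interaction. The adjusted p was 0.023 for CCNE1, whose log2 fold changes were −0.32 in HCC38, −0.62 in MDA-MB-468 and −0.05 in SUM149PT. It was 0.016 for CDKN1B (0.47, 0.33 and −0.15 in the same order of lines, edgeR) and 0.0081 for FBXW7 (−0.69, −0.28 and 0.14, edgeR). For SKP2 it was 0.047 (−0.36, 0.13 and −0.24, edgeR) and for CDK2 it was 0.086 (−0.21, 0.10 and −0.28, edgeR), and these last calls were lost in 5 and 11 of the 12 fits without 1 library. What sets the lines apart was not tested.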

How the results depend on the processing

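One choice was changed at a time, except that the DESeq2 test brings its own size factors, and fits on fewer libraries also tested another number of genes. Of 805 values of single genes under other settings, 763 kept their direction and side of the threshold, 24 lost a call, 10 gained one and 8 changed direction; without 1 library these counts were 1173, 60, 4 and 11 of 1248. Upper quartile normalization moved the median of all genes by 0.14 in MDA-MB-468, 0.06 in SUM149PT, 0.13 in HCC38 and 0.11 in the mean. Under it the log2 fold changes of CCNE2 in MDA-MB-468 (0.082), CCNE1 in SUM149PT (0.007), CCNE2 in the mean (0.011) and CCNE1 in LNA NS of MDA-MB-468 against HCC38 (−0.021) changed sign. With the span trend removed, FBXW7 in MDA-MB-468 (0.31) and in the mean (0.14), CDK2 in MDA-MB-468 (−0.015) and COL1A1 in the mean (−0.084) did so, and the cause was not tested. The 2 calls in SUM149PT became 1 with no filter on low counts and 1 with only the libraries of that line.

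Without 1 library, the members called numbered 3 to 5 in MDA-MB-468 (3 when either LNA NS replicate 1 or knock-down replicate 2 was absent), 0 to 2 in SUM149PT (0 when either LNA NS replicate 1 or knock-down replicate 2 was absent), 2 to 4 in HCC38 (2 without knock-down replicate 2), 5 to 7 in the mean and 2 to 5 for the difference between lines (2 without MDA-MB-468 knock-down replicate 2). In these fits the ranges that crossed 0 were −0.19 to 0.079 for CCNE2 in MDA-MB-468, −0.12 to 0.007 for CCNE1 and −0.29 to 0.19 for CCNE2 in SUM149PT, −0.027 to 0.062 for COL1A1 in the mean, −0.42 to 0.081 for CCNE2 and −0.079 to 0.25 for CKS1B in LNA NS of MDA-MB-468 against SUM149PT, and −0.014 to 0.11 for CCNE1 and −0.12 to 0.063 for FBXW7 in LNA NS of MDA-MB-468 against HCC38.

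The replicate numbers were not treated as pairing the libraries, since no label gives them a shared origin and the deviations of same-numbered libraries correlated at −0.32 in HCC38, −0.03 in MDA-MB-468 and 0.25 in SUM149PT. With the replicate block, 4 members were called in MDA-MB-468, 1 in SUM149PT, 4 in HCC38, 6 in the mean and 4 for the difference between lines, without FBXW7 in MDA-MB-468 (edgeR adjusted p = 0.11), SKP2 in SUM149PT (0.12), and CDK2 in the mean (0.11) and the difference (0.18). With the HCC38 numbers crossed, an alternative chosen after seeing the data, as were all alternatives for genes other than the members, 4 were called in HCC38, 7 in the mean and 5 for the difference.

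The fits have 2 libraries per group, so changes such as those of CCNE2, with intervals of about −0.40 to 0.29 in MDA-MB-468, were not detectable. Bulk counts give an average over all cells, and the libraries hold no measure of cell cycle phase per cell.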

Other observations

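Across the 12 libraries, which share 3 lines and the knock-down, the members' log2 CPM correlated as follows, with no test. SKP2 and CDC25A ran opposite to each other (Pearson r = −0.93), as did CCNE1 and CDC25A (−0.84), while CDK2 ran with CCNE2 (0.87) and CDKN1B (0.86). CDKN1B and CCNE1 had an r of −0.08 over the same libraries.

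Of 12891 protein-coding genes with a mean of at least 1 CPM, the 2 most like each member over the 12 libraries were CNPPD1 and SLC39A11 for CCNE1 (r = 0.97 each), SEL1L (0.975) and C2orf16 (0.954) for CCNE2, and NMT2 (0.994) and DBT (0.99) for CDK2. They were CALB1 (0.997) and ANKLE1 (0.993) for CDC25A, SMAD7 (0.974) and PPM1K (0.969) for CDKN1B, and PKDCC (0.984) and SYTL5 (0.974) for SKP2. For CKS1B they were SUPT4H1 (0.959) and ANAPC13 (0.958), and for FBXW7 SESTD1 (0.979) and NEMF (0.969). The points share 3 lines and the knock-down, and a high r of this kind can come from a difference between lines alone.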
